A study of Mus musculus with 9 samples.

Results

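The genes described here encode the nuclear parts of the mitochondrial respiratory chain and ATP synthase. They were chosen by name alone: every probe set that the platform annotation pairs with a single symbol starting with Nduf, Sdh followed by a to d, Uqcr, Cox followed by 4 to 8, or Atp5. The rule found 118 probe sets, and the brightest probe set of each gene by its mean over the 9 arrays left 93 genes of the 19937 on the arrays. The chain genes carried by mitochondrial DNA itself were not analysed here.

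RNA was measured in sorted cells from wild type C57BL/6 mice, with 3 arrays a group. The groups were Ly6C-high microglia, whose cell type label is MgSCs, Ly6C-low microglia, labelled bulk microglia cells, and spleen monocytes. The labels name no further allele or treatment in any group, and no age. Brains were perfused, digested with collagenase and DNase and enriched on Percoll before cells were sorted with antibodies that included one against Ly6C, a surface protein of inflammatory monocytes that endothelial cells also carry. Nothing in the labels ties the 3 samples of a group to different animals. The p-values thus rest on the variation among these arrays, part or all of which may be technical. An exact permutation test of 3 arrays against 3 cannot give a two-sided p below 0.1, so every adjusted p here is from limma, fitted to all 19937 genes on all 9 arrays, with Benjamini-Hochberg adjustment over all genes. A gene is called higher or lower where this adjusted p is under 0.05. Levels are log2 intensities, differences are log2 fold changes, and levels are compared only within a gene, because probes differ in brightness.

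The respiratory chain passes electrons from NADH and succinate to oxygen and pumps protons across the inner mitochondrial membrane, and ATP synthase uses the returning protons to make ATP. Complex I has a core conserved from bacteria and a large shell of accessory subunits, complex II also works in the citric acid cycle, complex III hands electrons to cytochrome c, and complex IV reduces oxygen. Several complex IV subunits exist as a ubiquitous form and a form restricted to muscle, lung or testis. Microglia are the resident macrophages of the brain. Brain endothelial cells are known for a high mitochondrial content, and monocytes are circulating cells that use glycolysis as well as respiration.

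Promoters of these genes are known for sites of the factors NRF1, GABP, ERR and YY1, so the sequence before the start is shown for 4 genes, the one with the greatest rise in Ly6C-high over Ly6C-low microglia in each of complexes III, I and IV and in ATP synthase. They are the 250 bases before the RefSeq start on GRCm38.p6, read 5′ to 3′ in the direction of the gene, on the minus strand of the chromosome except for Cox5b on the plus strand. Capitals mark a match to the core letters of a factor's site. Ndufa6 (chr15:82354292-82354541) held the NRF1 core CGCATGC on the reverse strand, 83 bases before the start. Uqcr10 (chr11:4704345-4704594), Cox5b (chr1:36691237-36691486) and Atp5j2 (chr5:145191542-145191791) had no match in these bases.
Uqcr10: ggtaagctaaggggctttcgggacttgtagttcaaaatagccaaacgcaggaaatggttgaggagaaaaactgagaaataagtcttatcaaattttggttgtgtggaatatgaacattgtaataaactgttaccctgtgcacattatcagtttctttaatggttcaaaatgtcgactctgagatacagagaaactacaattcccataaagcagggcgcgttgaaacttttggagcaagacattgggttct
Ndufa6: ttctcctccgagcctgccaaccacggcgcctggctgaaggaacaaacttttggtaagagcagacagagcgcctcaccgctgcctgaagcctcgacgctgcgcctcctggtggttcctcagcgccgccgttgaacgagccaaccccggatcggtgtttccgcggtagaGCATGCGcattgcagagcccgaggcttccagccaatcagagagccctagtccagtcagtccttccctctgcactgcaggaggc
Cox5b: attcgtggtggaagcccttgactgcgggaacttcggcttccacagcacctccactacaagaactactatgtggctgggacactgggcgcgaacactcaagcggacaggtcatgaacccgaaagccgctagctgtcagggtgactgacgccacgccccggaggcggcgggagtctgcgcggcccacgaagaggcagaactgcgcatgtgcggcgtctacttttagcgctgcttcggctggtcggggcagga
Atp5j2: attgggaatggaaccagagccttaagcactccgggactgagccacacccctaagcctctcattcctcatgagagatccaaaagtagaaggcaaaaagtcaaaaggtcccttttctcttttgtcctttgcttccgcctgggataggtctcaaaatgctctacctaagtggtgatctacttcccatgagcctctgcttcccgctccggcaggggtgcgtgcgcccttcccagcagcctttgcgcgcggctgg

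A promoter of 300 bases, 250 before and 50 after the start, was given for 77 of the 93 genes, as 82 promoters, and both strands were searched. CGCATGC, which overlaps its own reverse complement, was in 15.9% of the 82 promoters, against 4.44% of the 21263 promoters of protein-coding genes in the table. The GABP/ETS core CCGGAAG was in 25.6%, against 11.6%. The YY1 core ATGGCGG was in 15.9%, against 5.25%, and the ERR core AAGGTCA in 8.54%, against 4.08%. At least 1 of the 4 was in 51.2% of the respiratory chain promoters, against 22.4% of those of protein-coding genes. Of the 17 promoters of 16 genes called higher in Ly6C-high than in Ly6C-low microglia, 7 (41.2%) held a match. A match describes letters only and no binding was measured.

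The labelled cell types were checked against marker genes. The 10 markers of brain endothelium, among them Cldn5 and Cdh5, had a mean level of 10.48 to 11.04 on the Ly6C-high arrays, against 5.99 to 7.49 on the Ly6C-low arrays, and 5.83 to 5.96 on the monocyte arrays. The 9 measured markers of homeostatic microglia, among them Tmem119 and P2ry12, lay at 8.12 to 9.06 on the Ly6C-high arrays, against 11.11 to 11.55 on the Ly6C-low arrays, and 7.16 to 7.28 on the monocyte arrays. All 10 endothelial markers were called higher, and all 9 microglial markers lower, in Ly6C-high than in Ly6C-low microglia, so the Ly6C-high label goes with a strong endothelial and a reduced microglial signal. The mean level of classical monocyte markers ran from 6.56 to 9.63 over the Ly6C-high arrays, with replicate 2 the highest, against 6.13 to 6.38 over the Ly6C-low arrays and 10.08 to 10.40 over the monocyte arrays. Neutrophil markers lay at 5.95 to 7.16 in Ly6C-high microglia and at 7.09 to 9.76 in Ly6C-low microglia, with Ly6C-low replicate 3 the highest, against 10.17 to 10.72 in monocytes. B cell markers lay at 5.91 to 6.22 in Ly6C-high and 5.36 to 5.77 in Ly6C-low microglia, against 8.79 to 9.59 in the spleen monocytes. The part of these cell types in the results below was not tested, and in such bulk samples fewer cells of a type and less RNA per cell cannot be told apart.

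Between the microglial groups, 19 of the 93 chain genes rose in Ly6C-high over Ly6C-low microglia and 0 fell in limma, with 31 and 3 at an unadjusted p under 0.05. That is 20.4% of the chain genes called higher, while over all genes 4.49% were called higher and 11% lower. Bright genes as a whole ran the other way: of the 1536 genes at least as bright as the median chain gene, 7.88% were called higher and 28.8% lower, and their median log2 fold change was -0.44. The median over the 93 chain genes was 0.42, with 73 of them above 0, and over all genes it was 0.05. The 19 genes encode subunits of complexes I, III and IV and of ATP synthase. For each of them the 3 Ly6C-high arrays lay above the 3 Ly6C-low arrays. Of all 93 chain genes, the Ly6C-high arrays lay wholly above in 28 and wholly below in 2. Over all 19937 genes they lay wholly above in 2568 and wholly below in 3428. In simulated data whose spread differed between groups as on these arrays, 139 of 298 calls of this comparison were false. Only 100 genes were changed 2-fold and 100 genes 4-fold there, while 15.4% of all genes were called on the real arrays. The simulated share of false calls thus cannot be carried over to the chain genes. Of the 19 calls on the real arrays, 4 were kept in all 20 alternative analyses, those of Uqcr10, Ndufa6, Cox5a and Cox5b. The count was 31 after cyclic loess scaling. It was 32 without Ly6C-high replicate 1, and, with Ly6C-low replicate 2 or 3 left out, 11 or 9. The median log2 fold change was 0.26 without Ly6C-high replicate 2 and 0.61 without Ly6C-high replicate 1.

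**Figure D1:**
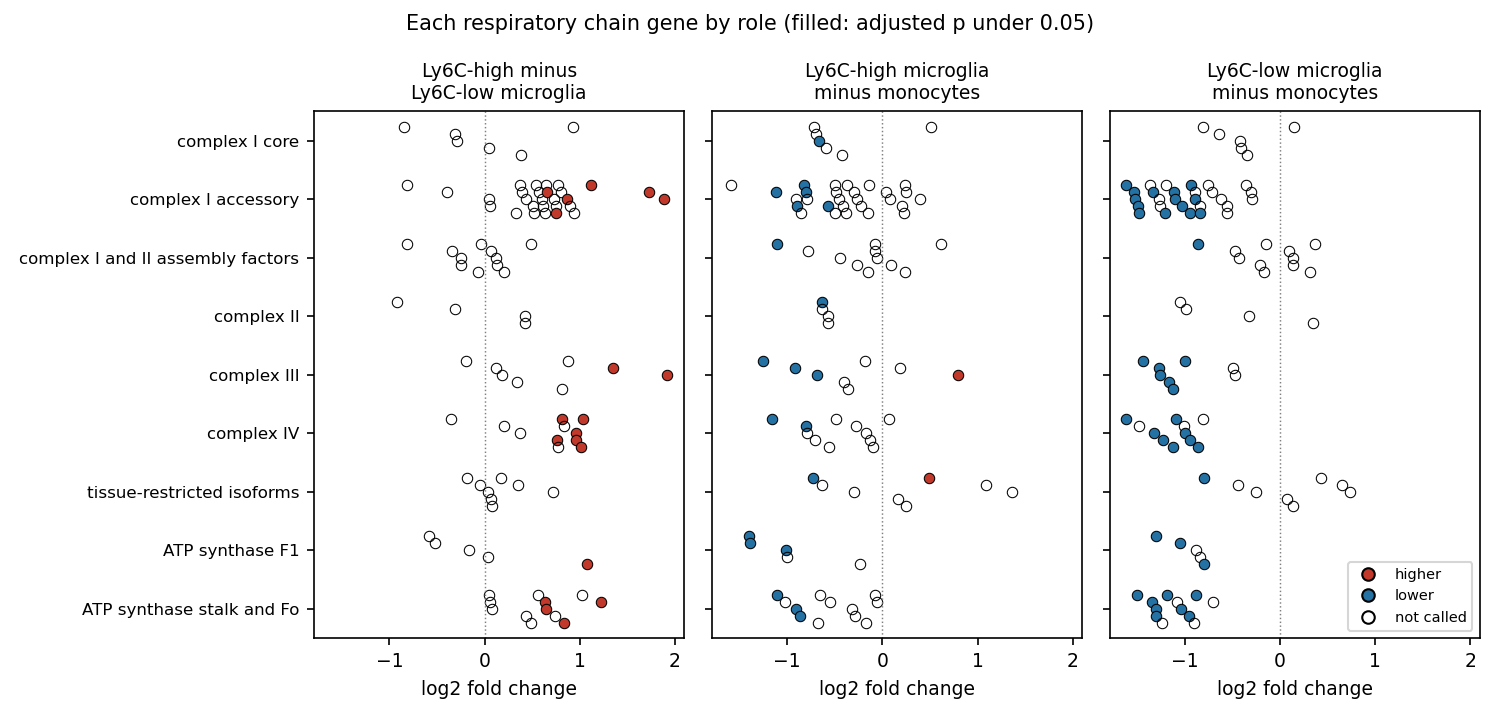
Log2 fold change of each of the 93 genes, 1 point a gene, by role (rows) in the 3 comparisons (panels); filled points have an adjusted p under 0.05, red for higher and blue for lower. In the left panel the 19 filled points lie in the rows of complex I accessory subunits, complexes III and IV and ATP synthase, and in the right panel 41 filled points lie below 0.

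Complex III had the gene with the greatest rise, Uqcr10, a small subunit beside the cytochrome c1 and Rieske proteins. Its level was 11.06, 10.52 and 11.06 on the Ly6C-high arrays, against 9.08, 9.23 and 8.58 on the Ly6C-low arrays and 10.34, 10.11 and 9.79 on the monocyte arrays. All 3 Ly6C-high arrays stood above both other groups. The log2 fold change over Ly6C-low microglia was 1.92 (SE 0.23, 3.79-fold, adjusted p = 8.11e-04, limma). Uqcrb, a small subunit near the ubiquinone site, had 8.56, 9.81 and 9.19 in Ly6C-high microglia, against 7.65, 7.78 and 8.07 in Ly6C-low microglia, a log2 fold change of 1.35 (SE 0.29, adjusted p = 0.0132). Its 2 other probe sets gave 1.14 and 1.76. The other 6 genes of complex III were not called in this comparison, with Uqcrq at 0.87, Uqcr11 at 0.82 and the hinge protein gene Uqcrh at 0.35. The Rieske iron-sulfur protein gene Uqcrfs1 was at 0.19 and the core protein genes Uqcrc2 and Uqcrc1 at 0.12 and -0.20.

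Of 28 complex I accessory subunit genes, 6 rose and 0 fell, their median log2 fold change was 0.63, and 26 were above 0. Of the 6 measured core genes 0 were called in limma, 1 had an unadjusted p under 0.05, and their median was -0.12. Ndufa6, an accessory subunit of the matrix arm that binds the mitochondrial acyl carrier protein, had 9.74, 8.86 and 8.59 in Ly6C-high microglia, against 7.54, 7.07 and 6.94 in Ly6C-low microglia. The groups were separated by more than 1 log2 unit, and the log2 fold change was 1.88 (SE 0.35, 3.68-fold, adjusted p = 0.0072). Ndufc1, a small membrane arm subunit, had 9.53, 9.79 and 8.49 in Ly6C-high microglia, against 7.88, 7.64 and 7.11 in Ly6C-low microglia, a log2 fold change of 1.73 (SE 0.37, adjusted p = 0.0134). Ndufb6, also of the membrane arm, had 9.08, 8.16 and 8.57 in Ly6C-high microglia, against 7.67, 7.49 and 7.31 in Ly6C-low microglia, a log2 fold change of 1.11 (SE 0.25, adjusted p = 0.0189). The other called accessory genes were Ndufv3 (0.87), Ndufb7 (0.75) and Ndufa2 (0.66). The core genes lay on both sides of 0, with overlapping arrays in 5 of 6. The iron-sulfur subunit gene Ndufs7 was at 0.93 (adjusted p = 0.0714), with 9.36, 8.27 and 8.38 in Ly6C-high microglia all above 7.69, 7.72 and 7.80 in Ly6C-low microglia, and at 0.58 without Ly6C-high replicate 1. Ndufv1, which binds the flavin that takes electrons from NADH, was at 0.05, its partner Ndufv2 at 0.38, Ndufs3 at -0.29, Ndufs1 at -0.31 and Ndufs8 at -0.85. The value of Ndufs8 was -0.40 without Ly6C-low replicate 2, which read 10.22 where the other Ly6C-low arrays read 8.52 and 9.19. Whether accessory and core genes differ from each other was not tested.

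Among the roles as split here, complex IV had the highest share of called genes, 6 of 11, with a median log2 fold change of 0.81. The tissue-restricted isoforms, most of them forms of complex IV subunits, were counted apart, with 0 of 8 called. Cox5b, a matrix-side subunit that binds zinc, had 10.12, 9.67 and 9.77 in Ly6C-high microglia, against 8.89, 8.76 and 8.81 in Ly6C-low microglia. No array of the groups overlapped, and the log2 fold change was 1.03 (SE 0.18, 2.04-fold, adjusted p = 0.0053). Its second probe set gave 1.24. Cox5a, the neighbouring matrix-side subunit, had 9.24, 9.57 and 9.19 in Ly6C-high microglia, against 8.43, 8.56 and 8.58 in Ly6C-low microglia, a log2 fold change of 0.81 (SE 0.14, adjusted p = 0.0052). Cox8a rose by 1.01, Cox6c and Cox7a2 by 0.96 each and Ndufa4, a complex IV subunit despite its name, by 0.76. The calls of Cox6c and Cox7a2 (adjusted p = 0.0457 and 0.0416) were lost in 13 and 12 of the 20 alternative analyses, as was that of the complex I gene Ndufa2 in 13. Without Ly6C-high replicate 2 the log2 fold change of Cox6c was 0.63. The calls of Cox8a, Ndufa4 and the complex I gene Ndufv3 were lost in 6 alternatives each, and those of Atp5j and Atp5o of ATP synthase in 5 each. Cox7a2l, which helps to join complexes III and IV into supercomplexes, was at -0.36 (adjusted p = 0.5182) with overlapping arrays.

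In ATP synthase, 4 of 12 genes of the stalk and the membrane part rose and 1 of 5 genes of the catalytic F1 head and central stalk. Atp5j2, subunit f of the membrane part, had 10.52, 10.72 and 10.11 in Ly6C-high microglia, against 9.26, 9.32 and 9.08 in Ly6C-low microglia, a log2 fold change of 1.23 (SE 0.22, adjusted p = 0.0058). Atp5j and Atp5o, of the peripheral stalk, rose by 0.83 and 0.64 and Atp5l, subunit g, by 0.65, although 1 of the 4 other probe sets of Atp5l gave -0.19. Atp5e, the small epsilon subunit of the central stalk, had 10.80, 11.15 and 11.34 in Ly6C-high microglia, against 10.26, 10.09 and 9.72 in Ly6C-low microglia, a log2 fold change of 1.07 (SE 0.22, adjusted p = 0.0117). The other F1 genes overlapped between the groups: Atp5d was at 0.04, the catalytic subunit gene Atp5b at -0.16, the rotor gene Atp5c1 at -0.52 and Atp5a1 at -0.59 (adjusted p = 0.1181). Without Ly6C-high replicate 1, Atp5c1 was at 0.04 and Atp5a1 at -0.36. Complex II had 0 called genes of 4, and 0 at an unadjusted p under 0.05, with Sdhb and Sdhd at 0.42 each, the flavoprotein gene Sdha at -0.31 and Sdhc at -0.92. Single arrays moved these values: Sdhc was at -0.28 without Ly6C-low replicate 3, which read 11.16 where the other Ly6C-low arrays read 9.14 and 9.35, and without Ly6C-high replicate 1 Sdhb was at 1.43 and Sdhd at 0.16. The median of the 11 assembly factors of complexes I and II was -0.04, with 0 called and 1 at an unadjusted p under 0.05.

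**Figure D2:**
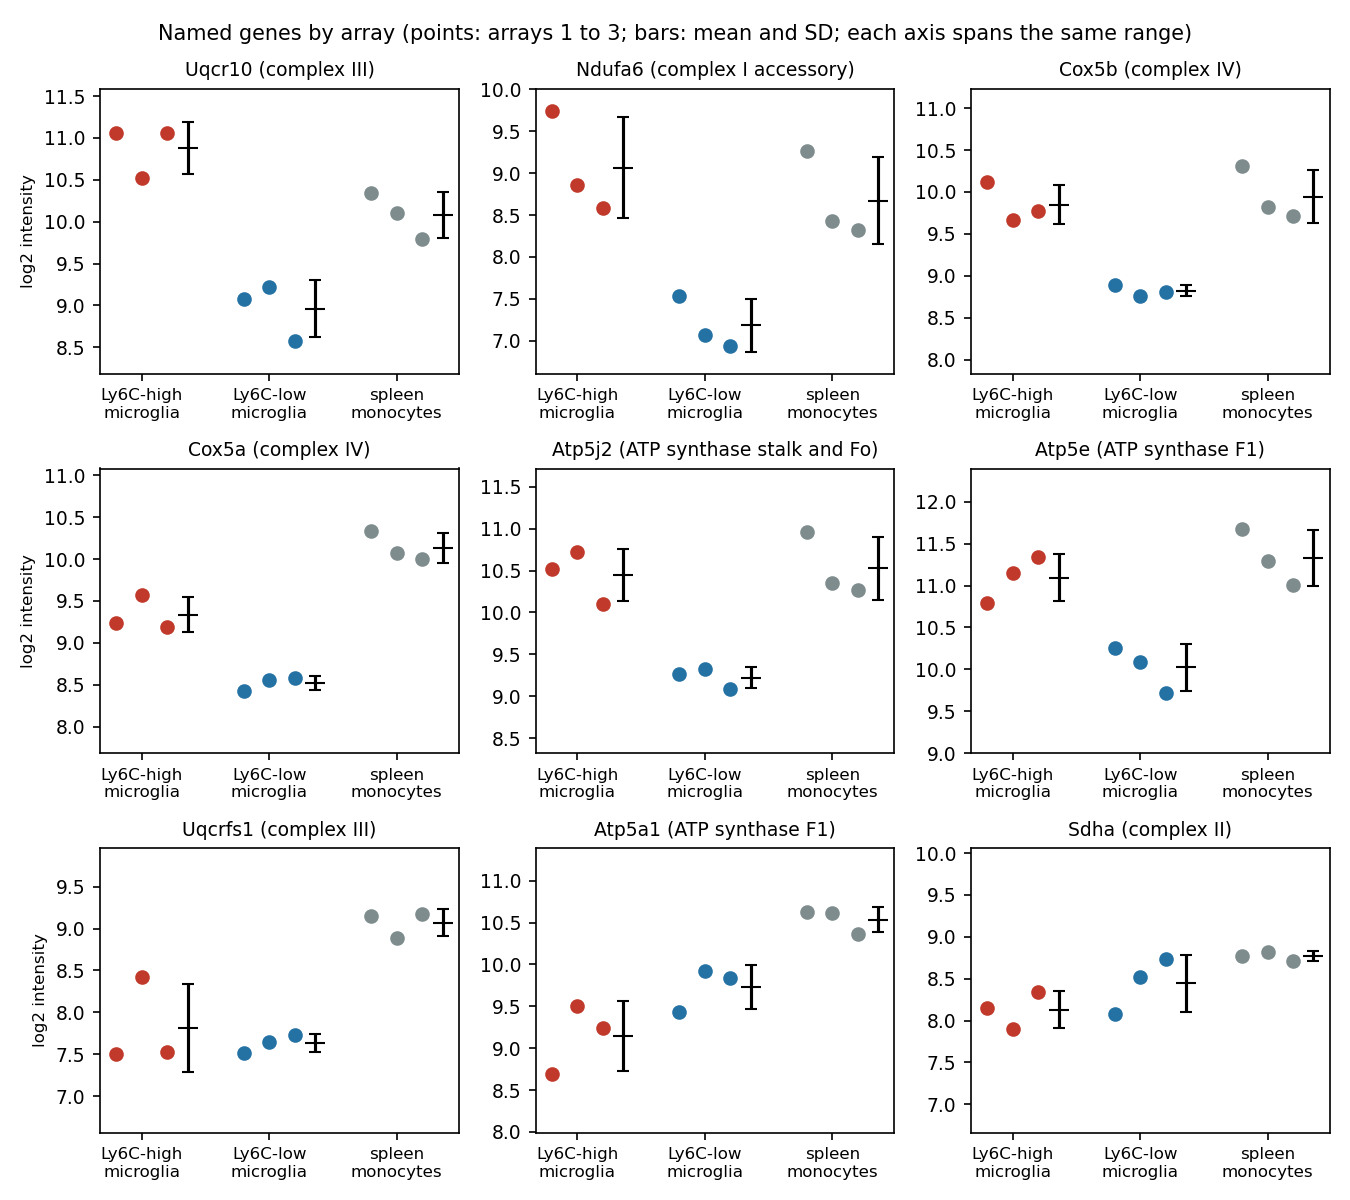
Log2 intensity of 9 genes on every array (points, replicates 1 to 3), with group mean and SD (bars), in Ly6C-high microglia, Ly6C-low microglia and spleen monocytes; every axis spans the same number of log2 units. Uqcr10 to Atp5e stand lowest in Ly6C-low microglia, while Uqcrfs1, Atp5a1 and Sdha overlap between the microglial groups.

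Set against spleen monocytes, Ly6C-high microglia had 20 chain genes called lower and 2 called higher, with a median log2 fold change of -0.43. Over all genes, 14.6% were called lower and 6.88% higher, with a median of 0.09. Among the 1536 bright genes 38.4% were called lower and 6.58% higher, with a median of -0.64, so the chain's share of lower genes (21.5%) lies above that of all genes and below that of bright genes. The count also depends on the array scaling: quantile scaling gave 4 lower and 4 higher with a median of -0.13, and cyclic loess gave 3 lower and 5 higher with a median of -0.02. The count of lower genes was 6, 8 and 8 without monocyte replicate 1, 2 or 3, and 13 without Ly6C-high replicate 1 or 3. The median was -0.25 without Ly6C-high replicate 1.

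By role, 3 of 5 F1 genes were lower (median -1.02), 3 of 12 genes of the stalk and membrane part (median -0.60), 3 of 8 of complex III (median -0.38), 2 of 11 of complex IV (median -0.49) and 5 of 28 complex I accessory genes (median -0.40). Atp5a1, the alpha subunit of F1, had 8.69, 9.50 and 9.24 in Ly6C-high microglia, against 10.63, 10.62 and 10.36 in monocytes, a log2 fold change of -1.39 (SE 0.22, 2.62-fold lower, adjusted p = 0.0030). Uqcrfs1, the Rieske protein, had 7.50, 8.43 and 7.53 in Ly6C-high microglia, against 9.15, 8.89 and 9.17 in monocytes, a log2 fold change of -1.25 (SE 0.24, adjusted p = 0.0071). Sdhaf2, which attaches the flavin to Sdha, had 6.57, 6.46 and 6.09 in Ly6C-high microglia, against 7.52, 7.61 and 7.30 in monocytes, a log2 fold change of -1.11 (SE 0.17, adjusted p = 0.0030). These 3 calls were kept in all 20 alternative analyses, and no array of the groups overlapped in any of them. Atp5c1 stood at -1.40, but with 8.20 on Ly6C-high replicate 1 and 10.00 and 9.79 on the others, against 10.65, 10.73 and 10.80 in monocytes (SE 0.41, adjusted p = 0.0420). Without that replicate Atp5c1 was at -0.84 and Cox7a2l, also called lower, at -0.74. Also lower were Cox7a2l (-1.16 on all arrays), Ndufa9 (-1.12), Atp5g1 of the membrane rotor ring (-1.11), Atp5d (-1.02), Uqcrh (-0.91), Atp5mpl (-0.91), Ndufb5 (-0.90), Atp5o (-0.87), Ndufb9 (-0.82), Ndufa10 (-0.80), Cox5a (-0.80), Cox6a2 (-0.72), Uqcrc1 (-0.69), Ndufs1 (-0.66), Sdha (-0.64) and Ndufb10 (-0.57). Sdha, with 8.15, 7.90 and 8.34 in Ly6C-high microglia, against 8.77, 8.82 and 8.71 in monocytes, lost its call in 12 of 20 alternatives.

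Uqcr10 was called higher in Ly6C-high microglia than in monocytes, by 0.80 (SE 0.23, adjusted p = 0.0390), a call lost in 9 of 20 alternatives. The other gene called higher, Cox4i2, the lung form of complex IV subunit 4, lay at 6.51, 6.49 and 6.90 in Ly6C-high microglia, against 6.23, 6.07 and 6.14 in monocytes, a difference of 0.49 that was lost in 14 of 20 alternatives. Of the other 18 genes that rose over Ly6C-low microglia, 16 were not called against monocytes, with log2 fold changes of -0.56 (Ndufa4) to 0.39 (Ndufa6), and Atp5o and Cox5a were called lower, at -0.87 and -0.80.

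Averaged over the 93 genes, Ly6C-low microglia had the lowest chain level of the 3 groups. This did not hold for every role. The median of Ly6C-high minus Ly6C-low microglia was negative in F1 (-0.16), complex I core (-0.12) and the assembly factors of complexes I and II (-0.04). In complex II it was 0.05, but the mean level was 7.90, 8.48 and 8.53 on the Ly6C-high arrays, against 7.98, 8.43 and 8.78 on the Ly6C-low arrays. For the tissue-restricted isoforms the median of Ly6C-low microglia minus monocytes was 0.10. In Ly6C-low microglia against monocytes 41 of 93 genes were called lower and 0 higher in limma (56 and 1 at an unadjusted p under 0.05). The median log2 fold change was -0.89, and 12 genes were above 0. The share called lower was 44.1% in the chain, and over all genes 7.71% were called lower and 6.8% higher, with a median of 0.05. Among the 1536 bright genes 17.4% were called lower and 13.9% higher, with a median of -0.18. The count of lower genes was 27 after cyclic loess and 31 after quantile scaling, and it was 66 with array weights. It was 25, 26 and 26 without Ly6C-low replicate 1, 2 or 3, and 19, 22 and 27 without monocyte replicate 1, 2 or 3.

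Called genes were found in complex IV (8 of 11, median -1.09), complex III (6 of 8, median -1.14), the ATP synthase stalk and membrane part (8 of 12, median -1.13) and complex I accessory subunits (14 of 28, median -0.99), with 3 of 5 F1 genes (median -0.88). Called lower were 0 of 6 complex I core genes (median -0.42, 0 at an unadjusted p under 0.05), 0 of 4 complex II genes (median -0.66, 1 at an unadjusted p under 0.05) and 1 of 11 assembly factors, Sdhaf2 (median of the 11, -0.15). Cox5a had 8.43, 8.56 and 8.58 in Ly6C-low microglia, against 10.34, 10.07 and 10.00 in monocytes, a log2 fold change of -1.61 (SE 0.14, 3.06-fold lower, adjusted p = 1.41e-04). Ndufb6 had 7.67, 7.49 and 7.31 in Ly6C-low microglia, against 9.38, 8.72 and 9.22 in monocytes, a log2 fold change of -1.62 (SE 0.25, adjusted p = 0.0033). Atp5o, the subunit that ties the peripheral stalk to the F1 head, had 8.69, 8.80 and 8.53 in Ly6C-low microglia, against 10.33, 10.27 and 9.93 in monocytes, a log2 fold change of -1.50 (SE 0.15, adjusted p = 2.83e-04). For each of these the lowest monocyte array stood more than 1 log2 unit above the highest Ly6C-low array. Uqcrfs1 had 7.52, 7.64 and 7.73 in Ly6C-low microglia, against 9.15, 8.89 and 9.17 in monocytes, a log2 fold change of -1.44 (SE 0.24, adjusted p = 0.0042). The accessory genes Ndufb3 (-1.54), Ndufc1 (-1.52), Ndufa6 (-1.49), Ndufa1 (-1.48) and Ndufb5 (-1.34), the complex IV gene Ndufa4 (-1.32) and Atp5mpl (-1.34) and Atp5e (-1.30) of ATP synthase were also lower. Of the 41 calls, 14 were kept in all 20 alternatives, among them Cox5a, Ndufb6, Atp5o, Uqcrfs1, Uqcrh and Atp5l. The catalytic subunit gene Atp5b had 9.12, 10.23 and 10.01 in Ly6C-low microglia, against 10.42, 10.67 and 10.80 in monocytes, a log2 fold change of -0.84 that was not called (adjusted p = 0.2352). The comparisons of both microglial groups share the same 3 monocyte arrays, and those of Ly6C-low microglia share its 3 arrays, so the counts of the 3 comparisons are not independent.

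**Figure D3:**
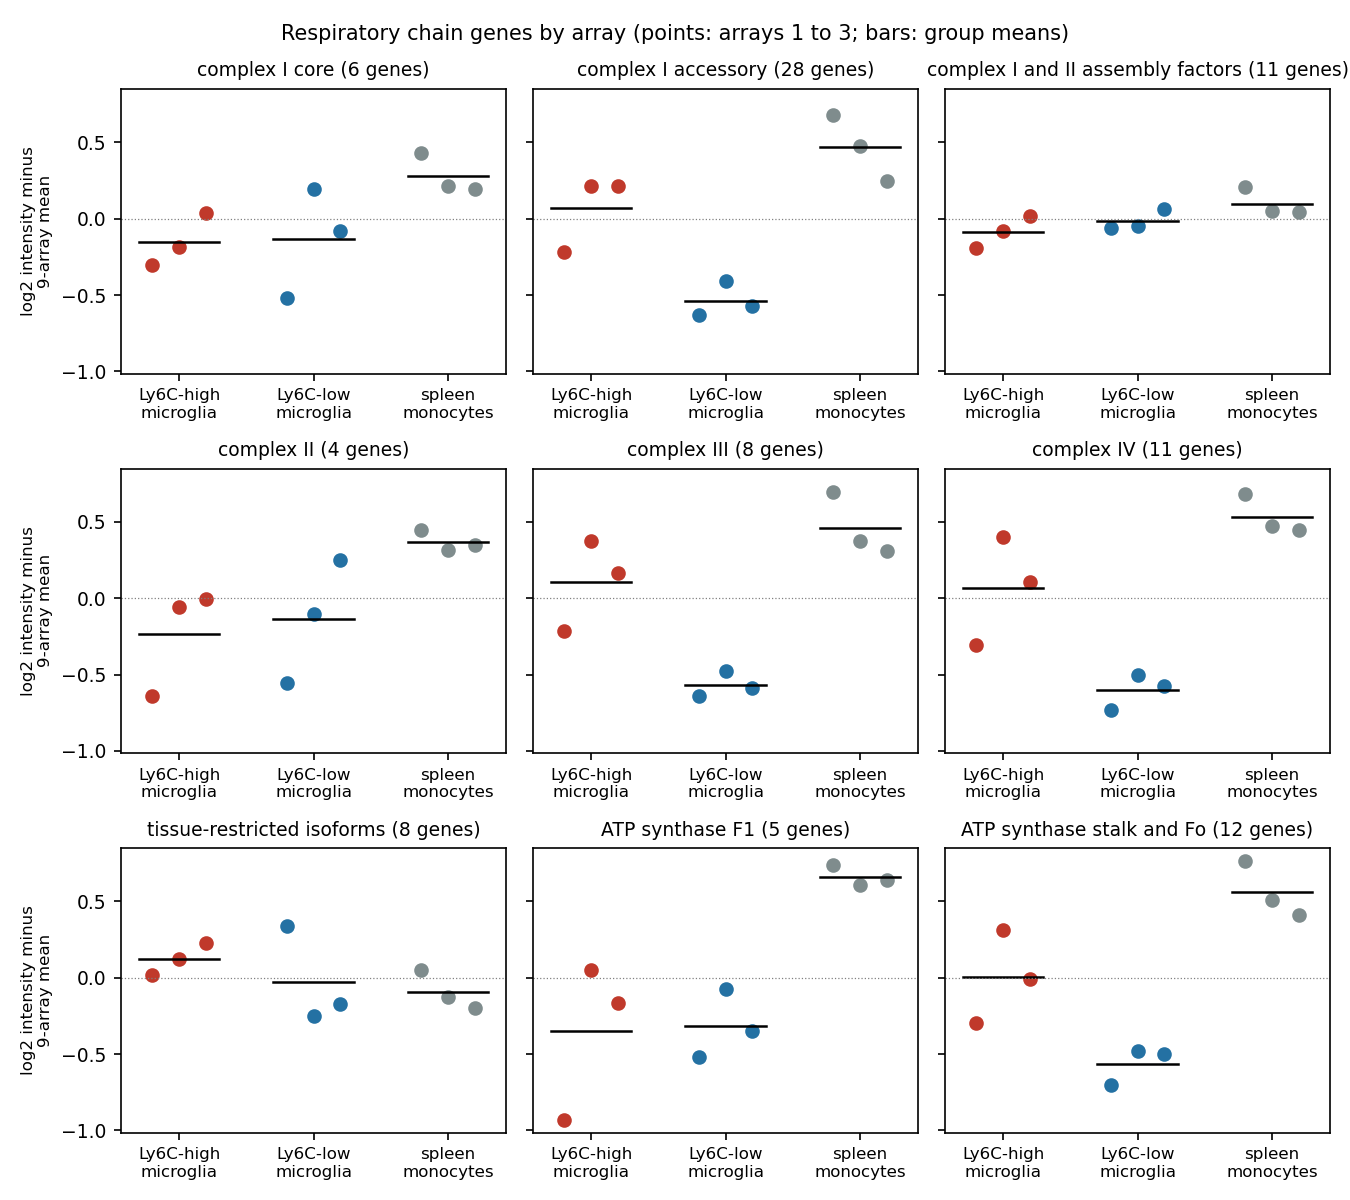
Mean over the genes of each role of the log2 intensity minus the gene's mean over the 9 arrays, by array (points, replicates 1 to 3) and group mean (bars). In complexes III and IV, complex I accessory subunits and the ATP synthase stalk and membrane part all 3 Ly6C-low arrays stand below all Ly6C-high arrays, while in complex I core, complex II and F1 the microglial groups overlap.

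Arrays of the Ly6C-high group were less alike than those of the other groups. The mean deviation of the 93 genes from their 9-array means was -0.28, 0.17 and 0.10 on the Ly6C-high arrays and -0.48, -0.31 and -0.38 on the Ly6C-low arrays, against 0.56, 0.35 and 0.26 on the monocyte arrays. In the deposited values the 3 groups did not overlap on this mean, but Ly6C-high replicate 1 (-0.28) and Ly6C-low replicate 2 (-0.31) lay close. Over the 1536 bright genes the mean was -0.74, -0.05 and -0.29 on the Ly6C-high arrays. It was -0.07, 0.23 and 0.18 on the Ly6C-low arrays, against 0.26, 0.23 and 0.26 on the monocyte arrays. In the chain genes Ly6C-high replicate 1 stood lowest of its group, and most so in F1, at -0.93 against 0.05 and -0.16 on the other Ly6C-high arrays. It was also the array with the narrowest spread of values over all probe sets, with an interquartile range of 2.24. In Ly6C-high microglia Sdhb read 6.23 on that array and 9.11 and 9.38 on the others. The median SD between arrays over the 93 genes was 0.41 in Ly6C-high and 0.26 in Ly6C-low microglia, against 0.21 in monocytes, and over all genes 0.27 in Ly6C-high and 0.14 in Ly6C-low microglia, against 0.11 in monocytes. Among the Ly6C-low arrays, replicate 1 had both the highest mean level of endothelial markers and the lowest chain level. Among the Ly6C-high arrays, replicate 1 had the lowest of both. Whether the 2 levels go together was not tested.

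Of the 8 tissue-restricted isoforms, 0 were called in limma between the microglial groups (median 0.07, 0 at an unadjusted p under 0.05), against 15.4% of all genes in either direction. Against monocytes 25% of them were called in Ly6C-high microglia and 12.5% in Ly6C-low microglia, close to the 21.5% and 14.5% of all genes. Cox4i2 was higher and Cox6a2 lower in Ly6C-high microglia than in monocytes, and Cox6a2 was lower in Ly6C-low microglia than in monocytes (-0.80, adjusted p = 0.0251). Cox6a2, the heart and skeletal muscle form of subunit 6a, had 7.72, 7.94 and 7.19 in Ly6C-high and 7.67, 7.43 and 7.51 in Ly6C-low microglia, against 8.53, 8.28 and 8.22 in monocytes. Single arrays stood out in others of these genes. Ndufa4l2, a relative of Ndufa4 known for its induction in hypoxia and its expression in pericytes, read 7.93 on Ly6C-high replicate 3 and 5.36 and 5.21 on the other Ly6C-high arrays, against 5.93, 5.21 and 5.21 in Ly6C-low microglia. The monocyte arrays read 4.73 to 4.84. Cox8b, a heart and muscle form, read 8.23 on Ly6C-high replicate 2 and 7.17 on Ly6C-low replicate 1, and 5.43 to 6.06 on the other 7 arrays. The muscle form Cox7a1 and the testis forms Cox6b2, Cox7b2 and Cox8c were not called in any comparison. The mean level of pericyte and smooth muscle markers ran from 7.34 to 8.50 in Ly6C-high and from 6.39 to 7.32 in Ly6C-low microglia, against 5.92 to 5.95 in monocytes, and its part in these values was not tested.

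Genes that build or feed the chain are read here against the 4.49% of all genes called higher and the 11% called lower between the microglial groups. Of 77 mitochondrial ribosome genes 1 was called higher and 0 lower in Ly6C-high against Ly6C-low microglia (median 0.10), a share of 1.3% called, and of 24 import translocase genes 1 was higher and 1 lower (4.17% each, median -0.05). Of 25 measured assembly factors of complexes III and IV, Higd1a, a small hypoxia-induced inner membrane protein, rose by 1.62 (SE 0.39, adjusted p = 0.0226), and Lrpprc, which stabilises mitochondrial messenger RNAs, fell by 1.57 on the log2 scale (SE 0.18, adjusted p = 6.63e-04). That is 4% of the list in each direction. Of 9 other assembly factors of complexes I and V, Nubpl fell by 0.49 and Foxred1 fell by 0.76, which is 22.2% of the list, with 5 lower and 0 higher at an unadjusted p under 0.05. Among 17 regulators of mitochondrial biogenesis 1 was called, Gabpb2, a beta subunit of GABP, which fell by 0.96 (adjusted p = 0.0014), a share of 5.88%. The median was -0.24, with 6 lower and 0 higher at an unadjusted p under 0.05. Ppargc1a, the PGC-1alpha coactivator, was at 0.31, Nrf1 at -0.16 and Esrra, the gene of ERR alpha, at -0.24, none called. Of 3 cytochrome c and c1 genes 0 were called, and 0 had an unadjusted p under 0.05, with Cycs at 0.41. Of 11 carriers and channels Vdac2 fell by 0.87 and Ucp1 fell by 0.69, a share of 18.2%. Of 12 hypoxia response genes 3 (25%) rose, Epas1 (2.98), Higd1a and Ankrd37 (0.84), and Pdk1, which restrains pyruvate entry into mitochondria, fell by 1.05. Epas1 is also known for high expression in endothelium. Of 60 cytosolic ribosome genes, a list added after the data had been seen, 0 were called in limma between the microglial groups (6 higher and 5 lower at an unadjusted p under 0.05), with a median of -0.05 and 25 above 0.

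Against monocytes, 10 of 77 mitochondrial ribosome genes were lower and 2 higher in Ly6C-high microglia (median -0.46). Their share of lower genes, 13%, lies below the 14.6% of all genes and the 38.4% of bright genes. These genes were dimmer than the bright genes, with a mean level of 6.94 to 7.80 by array, against 8.84 to 9.83. The bright share is thus not a like background for them. In Ly6C-low microglia 15 (19.5%) were lower and 1 higher (median -0.51), where 7.71% of all genes and 17.4% of bright genes were lower. Of 60 cytosolic ribosome genes 34 (56.7%) were lower in Ly6C-high microglia (median -0.67) and 22 (36.7%) in Ly6C-low microglia (median -0.56). The shares of bright genes were 38.4% and 17.4%. In limma 0 were higher in either group, with 1 higher in each at an unadjusted p under 0.05. The counts of both ribosome lists were not repeated under other array scalings. Cox17, the copper chaperone of complex IV, was lower in both, by a log2 fold change of -1.09 in Ly6C-high (adjusted p = 0.0244) and -1.58 in Ly6C-low microglia (adjusted p = 0.0054). Tfam, which packages and transcribes mitochondrial DNA, was at -1.05 in Ly6C-high (adjusted p = 0.0160) and -1.22 in Ly6C-low microglia (adjusted p = 0.0096). Polg2, the accessory subunit of the mitochondrial DNA polymerase, was at 1.31 in Ly6C-high (adjusted p = 0.0390) and 1.50 in Ly6C-low microglia (adjusted p = 0.0300). Higd1a was at -0.14 in Ly6C-high microglia without a call and at -1.76 in Ly6C-low microglia (adjusted p = 0.0164). Lrpprc was at -1.47 in Ly6C-high microglia (adjusted p = 8.05e-04) and at 0.09 in Ly6C-low microglia.

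**Figure D4:**
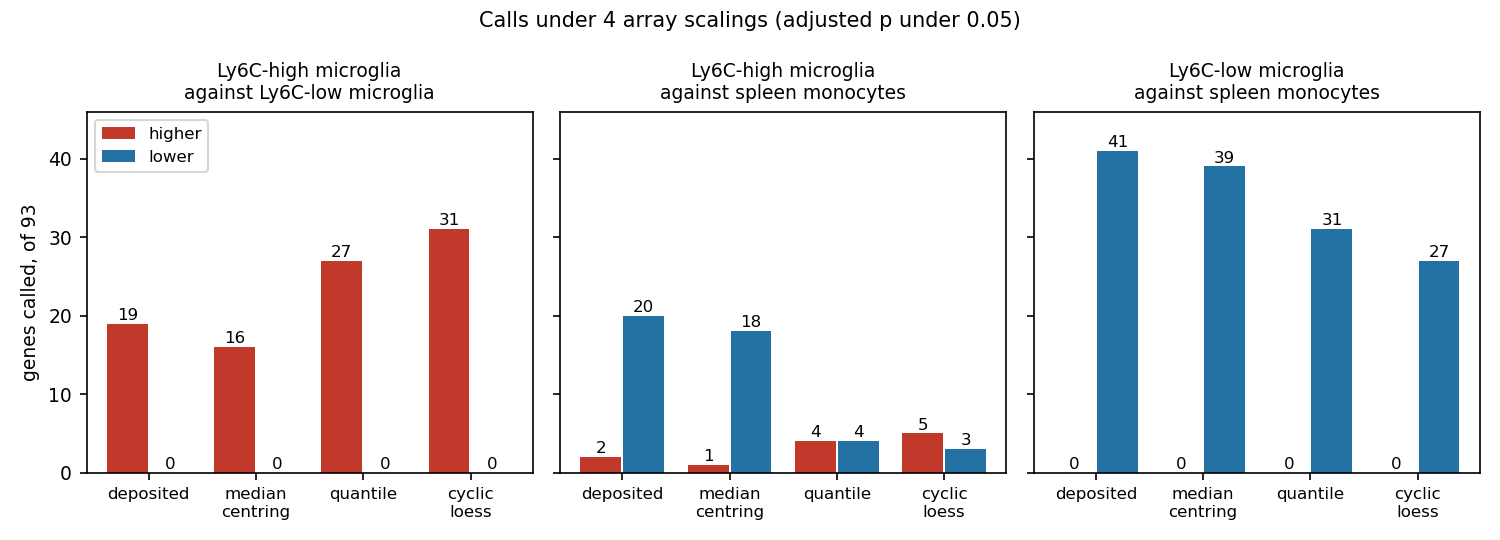
Number of the 93 genes called higher (red) or lower (blue) at an adjusted p under 0.05 under the deposited values, median centring, quantile scaling and cyclic loess, in the 3 comparisons. The rise in Ly6C-high over Ly6C-low microglia (16 to 31 genes) and the decrease in Ly6C-low microglia against monocytes (27 to 41) are seen under all 4, while the count lower in Ly6C-high microglia against monocytes runs from 3 to 20.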

How the data were processed

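Total RNA of sorted mouse cells was labelled with whole-transcript kits and hybridised to Affymetrix arrays, 1 sample an array. The log2 intensities of 34760 probe sets on 9 arrays are as deposited by the authors. Per the submitters' processing notes the tools were RMA and oligo (no version); their settings and the build were not given in the sources used here. RMA compresses differences of dim probe sets, and a common scaling of unlike cells can shift genes. Array medians ran from 5.83 to 5.96 and the precision is limited by 3 arrays a group.

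The platform annotation gave 1 symbol to 21640 probe sets, several to 1321 and none to 11799 in the table used. For 954 genes with more than 1 probe set the brightest was kept, which left 19937 genes. The deposited values were not rescaled. In R 4.3.3, limma 3.58.1 (lmFit, eBayes) fitted 3 group means to 9 arrays, two-sided, at a Benjamini-Hochberg adjusted p of 0.05 over all genes, and was tested on simulated data. The simulation changed 100 genes 2-fold and 100 genes 4-fold between the microglial groups. With 1 spread per gene in all groups, 10 of 160 calls were false. Where the simulated spread differed between groups as on these arrays, 139 of 298 calls were false, far more than that threshold allows. Calls between the microglial groups are thus less certain than their adjusted p states, most of all near the threshold. How much less was not measured, as the simulation changed far fewer genes than the 15.4% called on the real arrays. Ly6C-high microglia against monocytes was not simulated, and its calls rest on the same spread per gene, shared by all groups. Named are, for each comparison, the called chain genes at both ends of the fold changes, 12 an end, every gene of complex I core, complexes II and III, F1 and the tissue-restricted forms, and up to 5 genes of each pathway list. Nrf1, Ppargc1a and Esrra, and the probe sets and isoforms singled out for 1 array, were named after their values were seen. The members and lists were chosen with earlier results of these data known. The 20 alternatives covered scaling, spread, blocks, probe sets, a filter on dim genes and arrays left out. Promoters are RefSeq's (GRCm38.p6). Mitochondrial DNA genes and protein sequences were not used here.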

Additional observations from a re-analysis of the deposited data

How the results depend on the processing

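In 20 alternatives the median over all chain genes changed sign in no comparison, and no named gene did so while called in either analysis. Medians by role were not recomputed. A count has no sign. For Ly6C-high microglia against monocytes the balance turned under cyclic loess, from 20 lower and 2 higher to 3 lower and 5 higher. The cause of a changed count was not tested. For Ly6C-high against Ly6C-low microglia, the 19 genes called higher were 31 under cyclic loess, 8 when Ly6C-high replicate 2 was left out together with Ly6C-low replicate 3, and with single arrays left out 9 (Ly6C-low replicate 3) to 32 (Ly6C-high replicate 1). The 0 genes called lower became 1 with array weights and under both replicate blocks, and 0 to 1 with arrays left out, where Atp5a1 was called at -0.77 without Ly6C-high replicate 2. The median was 0.67 under quantile scaling, 0.71 under cyclic loess and 0.26 to 0.61 with arrays left out. For Ly6C-high microglia against monocytes, the 2 genes called higher were 4 under quantile scaling, 5 under cyclic loess, 0 with only the 6 arrays compared or an intensity trend, 1 under median centring, the dim filter, both replicate blocks and the pair of arrays left out, and 0 to 2 with single arrays left out. The 20 called lower were 4 under quantile scaling, 3 under cyclic loess and 6 (without monocyte replicate 1) to 24 (without Ly6C-high replicate 2), and the median was -0.13 under quantile scaling, -0.015 under cyclic loess and -0.53 to -0.25 with arrays left out. For Ly6C-low microglia against monocytes, the 0 genes called higher became 1, Cox4i2, with only the 6 arrays compared or array weights. The 41 called lower were 27 under cyclic loess, 66 with array weights and 19 (without monocyte replicate 1) to 53 (without Ly6C-high replicate 1), and the median was -0.69 under cyclic loess. With the title number as a replicate block the 3 comparisons had 16, 1 and 0 genes higher and 1, 21 and 35 lower. With the description number as a random replicate block (consensus correlation 0.29) they had 25, 1 and 0 higher and 1, 18 and 41 lower. Arrays with the same title number did not pair throughout: over all genes their deviations correlated at -0.03 for replicates 3 of both microglial groups, and at 0.30 and 0.15 for replicates 1 and 2. Arrays sharing a description number, 2 pairs only, correlated at 0.30 and 0.21, the highest values between the microglial groups. Microglial pairs sharing neither number ran from -0.28 to 0.12. A pairing by description number thus remains possible, and the main fit used no block. With 3 arrays a group, the precision is lowest for genes with a wide spread in Ly6C-high microglia, such as Sdhb (SD 1.75).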

Other observations

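Another 6 probe sets are paired with a chain gene and a second symbol, so they were not counted and no change is assigned to either gene. The 2 probe sets of Ndufb4 and Ndufb4b averaged 7.90 ± 0.93 and 8.90 ± 0.71 in Ly6C-high and 6.23 ± 0.41 and 8.06 ± 0.31 in Ly6C-low microglia, against 7.28 ± 0.24 and 9.16 ± 0.07 in monocytes (log2 intensity, SD, n = 3 each). The probe set of Ndufs5 and Ndufs5-ps averaged 8.31 ± 1.01 in Ly6C-high and 7.56 ± 0.44 in Ly6C-low microglia, against 8.54 ± 0.37 in monocytes. The 3 probe sets of Cox7c, encoding a small complex IV subunit, and Gm12338 averaged 8.91 ± 0.28, 9.57 ± 0.26 and 10.85 ± 0.28 in Ly6C-high and 8.15 ± 0.23, 9.38 ± 0.07 and 10.62 ± 0.01 in Ly6C-low microglia, against 9.31 ± 0.24, 9.96 ± 0.08 and 11.11 ± 0.09 in monocytes. In all 6 the mean was lowest in Ly6C-low microglia.

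Of the 93 chain genes, 18 had several probe sets with a single symbol. All probe sets of a gene had the same sign in 11 of the 18 for Ly6C-high against Ly6C-low microglia, 13 for Ly6C-high microglia against monocytes and 15 for Ly6C-low microglia against monocytes.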
